A study of Mus musculus with 11 samples.

Results

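The 10 genes examined, all of the trophectoderm, were measured in single mouse embryos at the 8-cell stage, with and without *Prdm10*: the transcription factor genes *Cdx2*, *Eomes*, *Gata2*, *Gata3*, *Tfap2a*, *Tfap2c* and *Elf3*, the keratin genes *Krt8* and *Krt18*, and the endocytic adaptor gene *Dab2*. They were taken by symbol, and all 10 were found among the 54146 gene records of each embryo's table. Single-embryo RNA-seq libraries of C57BL/6 embryos collected from the oviduct at embryonic day 2.5 had been made from matings between heterozygous (*Prdm10*Δ/+) animals. The 6 controls were *Prdm10* WT/HET, a mixture of wild-type and heterozygous embryos that the labels do not separate, and the 5 mutants were *Prdm10* KO, with both alleles carrying the germline deletion of exon 5. Genotype had been assigned from detection of exon 5 in each embryo's own cDNA. Batch 1, pre-amplified with 16 PCR cycles, held 3 controls (replicates 4 to 6) and 2 mutants (replicates 4 and 5), and batch 2, with 13 cycles, held 3 controls and 3 mutants (replicates 1 to 3 of each).

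Trophectoderm is the outer epithelium of the blastocyst and the first lineage set apart in the mouse embryo. In outer cells the Hippo pathway effector YAP enters the nucleus and, with TEAD4, turns on *Cdx2* and *Gata3*, whose products then support the trophoblast program together with EOMES and the AP-2 factors. KRT8 and KRT18 are the type II and type I keratins of simple epithelia. Keratin filaments assemble from a type I and a type II partner, and those of KRT8 and KRT18 are the first intermediate filaments that the embryo builds. Several of these genes, *Cdx2* among them, switch on between the cleavage stages and the blastocyst.

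*Krt18* was the only gene of the 10 called between the genotypes (adjusted p below 0.05 and a mean normalised count above 10) by DESeq2, which called 1.45% of all genes tested, and edgeR and limma called none of the 10. The promoter of *Krt18* and that of its neighbour and partner gene *Krt8* are shown first for this reason. *Krt8* (ENSMUSG00000049382.10, minus strand, chromosome 15 from 101996698 to 102004482, GRCm38) and *Krt18* (ENSMUSG00000023043.7, plus strand, chromosome 15 from 102028180 to 102032027) are neighbours that are read away from each other, with 23697 bases between them. The RefSeq promoter windows, 250 bases before to 50 after the start site (GRCm38.p6), are printed 5′ to 3′ on the strand of the gene. Capitals mark matches, searched on both strands, to motifs of factor families in the pathway. The AP-2 motif was spelled GCCNNNGGC. The motif of the GATA family was spelled AGATAA, with TGATAA as its other form. The TEAD family was searched as CATTCC. The motif of the KLF family was spelled GGGNGTGG. The TATA box was searched as TATAAA.
Krt8, chr15:102004293-102004592: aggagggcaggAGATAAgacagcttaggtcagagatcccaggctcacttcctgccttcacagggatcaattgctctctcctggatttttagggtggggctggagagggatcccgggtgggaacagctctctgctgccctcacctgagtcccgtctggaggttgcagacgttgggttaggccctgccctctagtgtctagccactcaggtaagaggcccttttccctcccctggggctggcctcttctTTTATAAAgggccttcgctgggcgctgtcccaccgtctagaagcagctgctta
Krt18, chr15:102027966-102028265: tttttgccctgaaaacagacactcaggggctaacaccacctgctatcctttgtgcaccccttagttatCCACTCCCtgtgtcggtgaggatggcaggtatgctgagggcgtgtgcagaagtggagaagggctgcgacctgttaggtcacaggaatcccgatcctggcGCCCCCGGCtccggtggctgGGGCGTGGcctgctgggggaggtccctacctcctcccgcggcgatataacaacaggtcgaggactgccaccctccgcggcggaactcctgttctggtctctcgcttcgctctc

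The *Krt8* window holds a GATA motif near its far end and overlapping TATA-box letters on both strands next to the RefSeq start. The *Krt18* window holds an AP-2 motif, which reads the same on both strands, beginning 83 bases before the start, and a KLF motif on each side of it. Over all 32851 RefSeq promoters the share with a match was 16.6% for AP-2, 18.6% for GATA, 14.7% for TEAD, 17.6% for KLF and 13.6% for the TATA box. Of 12 windows that matched 9 of the trophectoderm genes (*Gata2*, *Tfap2a* and *Dab2* have 2 each, and *Tfap2c* had no entry), 5 held AP-2, 3 TEAD, 3 KLF, 2 GATA and 1 the TATA box. The AP-2 windows were those of *Cdx2*, *Dab2*, *Gata2*, *Gata3* and *Krt18*, and the GATA windows those of *Dab2* and *Krt8*. These matches describe the letters of the windows and nothing more. None of the 10 genes is in the study's own list of genes bound by PRDM10, which was made in embryonic stem cells.

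The labels and depth were checked before the values were read. Summed expected counts ranged from 3534735 to 8265840 per library. *Prdm10*, the deleted gene, had a TPM (transcript abundance scaled for gene length and library total) of 11.1, 15.5 and 24.8 (lowest, median and highest) in controls and 4.88, 5.32, 7.29, 7.67 and 8.16 in mutants, so that every mutant lay below every control on this scale. The effective length that RSEM gave *Prdm10* also differed, at 2565 to 3357 bases in controls and 4348 to 5051 bases in mutants, and a longer one lowers the TPM. In normalised counts the groups overlapped, with 2 of 5 mutants below every control (log2 fold change -0.66 ± 0.26, SE, DESeq2 adjusted p = 0.215). All 8 markers of the cleavage embryo were detected in both groups, with summed levels of 6088 to 7610 TPM in controls and 6146 to 7206 TPM in mutants. Transcripts of oviduct epithelium, by contrast, were present in some libraries: the summed TPM of 8 markers ranged from 0.72 to 29.3 in controls (7 of 8 with a count) and from 1 to 63.3 in mutants (8 of 8). In batch 2, 3 embryos exceeded 10 TPM, namely control replicate 1 (29.3), mutant replicate 2 (20.0) and mutant replicate 3 (63.3), led by *Ovgp1*, the gene of the oviduct glycoprotein. Since keratins are also made by oviduct epithelium, the genotype difference of each tested keratin gene is given with and without these 3 embryos. Of the 8 cumulus and granulosa markers, *Has2*, *Ptx3* and *Foxl2* were at 0 in every library, and *Inha* and *Inhba* had counts only in mutant replicate 2 (7.83 and 3.08 TPM).

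The levels of the 10 genes spanned a wide range on the TPM scale. In controls the order of the means was *Tfap2c* (72.7 ± 36.1, SD, n = 6), *Elf3* (20.7 ± 12.4), *Dab2* (10.9 ± 11.4), *Gata3* (3.58 ± 1.64), *Krt18* (2.61 ± 1.87), *Krt8* (2.27 ± 1.79) and *Cdx2* (0.373 ± 0.475), followed by *Tfap2a* (0.0417 ± 0.0665), with *Eomes* and *Gata2* listed at 0 in all 6. Only the first step of this order was clear of the spread, *Tfap2c* being above *Elf3* in 6 of 6 controls. *Elf3* was above *Dab2* in 5 of 6, *Dab2* above *Gata3* in 4, *Gata3* above *Krt18* in 5, *Krt18* above *Krt8* in 3, and *Krt8* above *Cdx2* in 5. In mutants *Krt18* stood higher in the order: it was above *Gata3* in 5 of 5 embryos and above *Krt8* in 5 of 5. Each value is one embryo, and fewer cells that express a gene cannot be told apart from less RNA of it per cell.

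**Figure D1:**
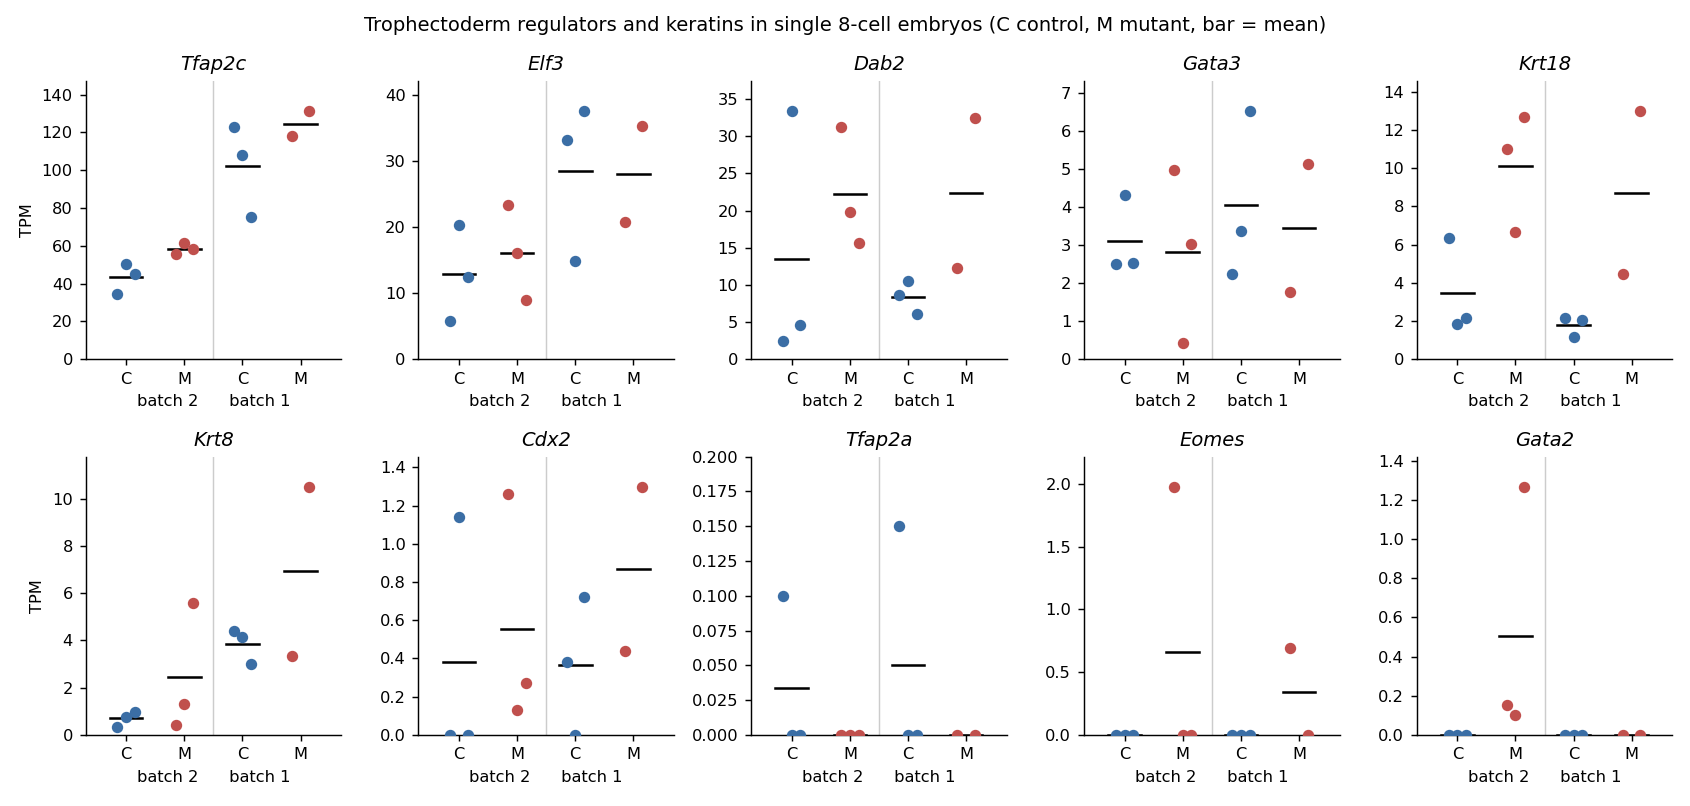
TPM of each of the 10 genes in the 11 embryos, on linear axes that start at 0 and differ between panels, with controls (C) in blue, mutants (M) in red, batch 2 left and batch 1 right of the grey line, and a bar at each mean. All *Krt18* mutants lie above the controls of their own batch, *Tfap2c* mutants do so except mutant replicate 4, and *Eomes* and *Gata2* have values above 0 in mutants only.

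*Krt18* was higher in mutants. Its TPM was 1.14, 2.10 and 6.36 in controls (lowest, median and highest), against 11.02, 6.65 and 12.7 in the mutants of batch 2 and 4.44 and 13.0 in those of batch 1. Every mutant was above every control of its own batch, and 4 of 5 were above every control of either batch, the exception being mutant replicate 4, which lay below control replicate 1. Mean normalised read counts (scaled by library size factors) averaged 17.0 ± 13.1 over the 6 controls and 62.3 ± 25.2 over the 5 mutants (SD). In the DESeq2 model with batch as a term, the log2 fold change was 1.85 ± 0.47 (SE), or 3.603-fold, with a 95% interval of 0.92 to 2.77 and an adjusted p of 0.0148 over all genes. The edgeR quasi-likelihood test gave a near-identical log2 fold change of 1.86, but an adjusted p of 0.184, which misses the threshold of 0.05. In data simulated on these libraries, 16.6% of DESeq2 calls and 5.12% of edgeR calls were false.

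*Krt18* was higher in mutants in both batches. By itself, batch 2 gave a log2 fold change of 1.53 ± 0.67 (SE) and batch 1 gave 2.29 ± 0.82, and neither passed the DESeq2 threshold (adjusted p = 0.523 and 0.276). The expected counts behind it were low, 5 to 52 reads in controls and 25 to 98 in mutants. RSEM gave a posterior SD of 0 for this count in every embryo, which leaves no read undecided between *Krt18* and another gene. Among the controls, replicate 1 stood apart with a normalised count of 43.1, against 6.73 to 15.5 in the others, and it was also the control with the highest sum of oviduct markers. Without the 3 embryos over 10 TPM of those markers, the remaining 5 controls spanned 1.14 to 2.16 TPM and the remaining 3 mutants had 4.44, 11.02 and 13.0 TPM. The log2 fold change was then 2.32 ± 0.59 (SE, DESeq2 adjusted p = 0.0189, edgeR adjusted p = 0.161), against 1.85 with all 11 embryos. These embryos were left out after the values had been seen, and the part of oviduct RNA in the *Krt18* level of single embryos was not tested. Mutant replicate 5, which had the highest *Krt18* TPM, had an oviduct marker sum of 1 TPM. In normalised counts mutant replicate 3 was the highest, at 86.8 against 77.6 in mutant replicate 5. The call was lost in 2 of 11 DESeq2 fits that each left out an embryo, without mutant replicate 3 (log2 fold change 1.81, adjusted p = 0.0587) and without mutant replicate 5 (1.44, adjusted p = 0.259). These 2 fits called 104 and 91 genes in all, against 151 with all 11 embryos.

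*Krt8*, the partner keratin, varied with batch. Its TPM was 0.35, 0.76 and 0.98 in the controls of batch 2 and 4.39, 4.13 and 2.99 in those of batch 1. In mutants it was 0.41, 1.32 and 5.57 in batch 2 and 3.34 and 10.5 in batch 1. The lowest mutant in each batch lay among the controls of that batch, and 3 of 5 mutants lay above them. The log2 fold change between genotypes was 1.36 ± 0.63 (SE), with an interval of 0.13 to 2.59, an unadjusted p of 0.0299 and DESeq2 and edgeR adjusted p values of 0.360 and 0.532, so the difference did not pass the threshold. Without the 3 embryos rich in oviduct markers it was 0.35 ± 0.64 (SE, DESeq2 adjusted p = 1.000), and without mutant replicate 3 alone it was 0.65. Mutant replicate 3 held both the highest oviduct sum and the highest *Krt8* of its batch, and the part of oviduct RNA in its *Krt8* level was not tested. The pseudogene *Krt8-ps* had no counts in any library, and the posterior SD of the *Krt8* count stayed under 1 read in every embryo.

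The balance of the pair differed between embryos. The ratio of *Krt18* to *Krt8* in TPM was 18.2, 2.41 and 2.20 in the controls of batch 2 and 0.485, 0.276 and 0.689 in those of batch 1. In mutants the ratios were 26.9, 5.04 and 2.28 in batch 2 and 1.33 and 1.23 in batch 1. All 6 embryos of batch 2 thus had more *Krt18* than *Krt8*, as had both mutants of batch 1, while the 3 controls of batch 1 had less. Some of these ratios rest on fewer than 10 reads of *Krt8*, or of *Krt18* (7 in control replicate 2 and 5 in control replicate 5). They are given as a description.

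**Figure D2:**
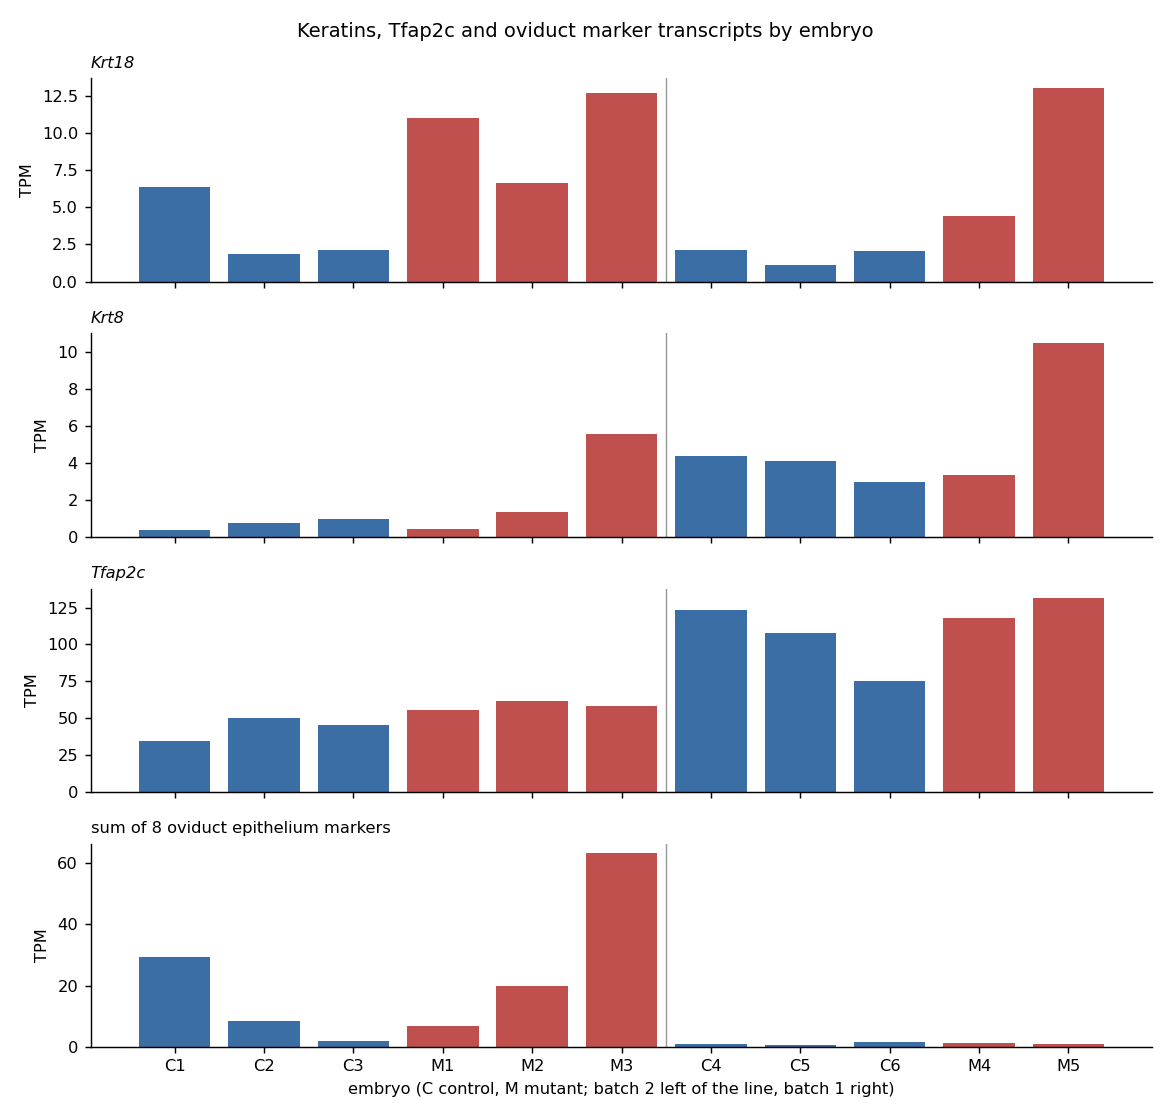
TPM by embryo of *Krt18*, *Krt8* and *Tfap2c*, and in the lowest panel the summed TPM of 8 oviduct epithelium markers, with controls in blue, mutants in red, and batch 2 left of the line. High *Krt18* occurred with an oviduct sum of 63.3 in mutant replicate 3 and with a sum of 1 in mutant replicate 5, and all 5 embryos of batch 1 had sums of 1.5 or less.

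Of the other keratin genes, 48 records in all, 16 had a count in some embryo and 2, *Krt19* and *Krt28*, reached a mean normalised count above 10. None passed the DESeq2 or the edgeR threshold, and 1 had an unadjusted DESeq2 p under 0.05, against 11.9% of all genes tested. This was *Krt19*, a type I keratin that also pairs with KRT8, with 0, 5.69 and 14.3 TPM in the mutants of batch 2, 0.320 and 0 in those of batch 1, and 2.23 at most in controls (log2 fold change 2.44 ± 1.23, SE, DESeq2 adjusted p = 0.427). Without the 3 embryos rich in oviduct markers its sign turned, to -1.10 ± 3.29 (SE, DESeq2 adjusted p = 1.000). Its 3 highest embryos were mutant replicate 3, mutant replicate 2 and control replicate 1, the same 3 that exceeded 10 TPM of oviduct markers. The part of oviduct RNA in the *Krt19* level was not tested. *Krt28*, a keratin of the hair follicle, had a median of 1.65 TPM in controls and 0.310 to 3.89 TPM in mutants (log2 fold change -0.25, and -0.52 without the 3 embryos). *Krt10* of the epidermis had a median of 0.925 TPM in controls and 0.80 to 3.01 TPM in mutants. Filament linkers and desmosome genes gave 4 tested genes of 12, all with positive log2 fold changes (median 0.37). Of the 4, 0 were called by DESeq2 or edgeR and 1 had an unadjusted DESeq2 p under 0.05, against 11.9% of all genes tested. *Jup*, the plakoglobin gene, was at 5.25 to 45.2 TPM in controls and 7.32 to 25.1 TPM in mutants. *Pkp4*, a plakophilin gene, was at 2.77 to 6.31 TPM and 3.69 to 11.7 TPM (log2 fold change 0.63 ± 0.33, SE, DESeq2 adjusted p = 0.436). *Vim*, the vimentin gene, got no p under the DESeq2 filter on outlying counts, and mutant replicate 2 had 26.1 TPM against at most 5.05 in every other embryo.

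Of the AP-2 genes, *Tfap2c* was the most abundant of the 10, and *Tfap2a* was almost absent. *Tfap2c* lies on chromosome 2 from 172549593 to 172558622 and *Tfap2a* on chromosome 13 from 40715302 to 40738376. AP-2γ, the product of *Tfap2c*, is present from the oocyte onwards and acts on *Cdx2* and on the genes of polarity. In batch 2 *Tfap2c* was at 34.4, 50.4 and 45.1 TPM in controls and 55.8, 61.3 and 58.1 TPM in mutants. In batch 1 it was at 123, 108 and 75.4 TPM in controls. The mutants of batch 1 had 118 and 131 TPM. In batch 2 the groups did not overlap, and in batch 1 control replicate 4 was higher than mutant replicate 4. On the scale of normalised counts, where *Tfap2c* of control replicate 4 was 1322 and of mutant replicate 4 was 1352, all 5 mutants were above the controls of their batch. The log2 fold change was 0.38 ± 0.16 (SE), with an interval of 0.07 to 0.68, an unadjusted p of 0.0155 and DESeq2 and edgeR adjusted p values of 0.264 and 0.403. The value is thus positive in both batches (0.44 and 0.31) and small, and it did not pass the threshold. *Tfap2a* had a single read in control replicate 1, a pair of reads in control replicate 4, and none elsewhere. A count of 0 allows up to 3 reads, which was 0.222 to 0.543 TPM for *Tfap2a* in the 9 libraries without a read.

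Of the GATA factors, *Gata3* was expressed in all 11 embryos and *Gata2* in 3. They lie on chromosome 2 from 9857078 to 9890034 and on chromosome 6 from 88193891 to 88207032. *Gata3*, a factor of trophoblast that acts beside CDX2, had 2.24, 2.95 and 6.53 TPM in controls (lowest, median and highest) and 4.98, 0.42, 3.03, 1.77 and 5.14 TPM in mutant replicates 1 to 5. Mutant replicates 2 and 4 lay below every control on this scale, and the other mutants lay within the control range. In normalised counts 2 of 5 mutants (replicates 1 and 5) lay above every control and 2 of 5 (replicates 2 and 4) below, so the mutants fell on both sides of the controls. Its log2 fold change was 0.05 ± 0.50 (SE, DESeq2 adjusted p = 0.988), and its interval of -0.94 to 1.04 leaves a change of up to about 2-fold in either direction. Its sign turned on the scale, being -0.26 in limma on log2(TPM + 1). The effective length that RSEM gave *Gata3* differed between embryos, from 1821 to 3141 bases. *Gata2*, which acts later in trophoblast, was listed at 0 in all 6 controls and both mutants of batch 1, and had 0.15, 0.10 and 1.27 TPM in the mutants of batch 2. These levels stand on 3, 2 and 20 reads, and the highest was in mutant replicate 3, the embryo with the highest sum of oviduct markers. The source of these reads was not tested. A count of 0 allowed up to 0.268 to 0.575 TPM of *Gata2* in the 8 libraries at 0, above the level seen in 2 of the 3 mutants.

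*Cdx2* and *Eomes*, the 2 factors that define trophoblast stem cells, were near the limit of detection. They lie on chromosome 5 from 147300805 to 147307270 and on chromosome 9 from 118478212 to 118486132. *Cdx2* had 0, 0.19 and 1.14 TPM in controls (lowest, median and highest) and 1.26, 0.13, 0.27, 0.44 and 1.3 TPM in mutant replicates 1 to 5. No read was found in 3 of 6 controls, while all 5 mutants had between 2 and 18 reads, and 2 mutants exceeded every control. Its mean normalised count was 5.22, below the minimum of 10, and the limit that a count of 0 allows was 0.229 to 0.427 TPM, so the control embryos at 0 cannot be told from the lower mutants at this depth. *Eomes* was seen in 2 embryos, both mutants, at 1.98 TPM (45 reads) in mutant replicate 1 and 0.69 TPM (10 reads) in mutant replicate 4. It was listed at 0 in the 9 others, where a count of 0 allows 0.168 to 0.409 TPM. The oviduct marker sums of its positive embryos were 6.64 and 1.2 TPM, and the source of these reads was not tested. The 4 genes at such levels (*Cdx2*, *Eomes*, *Gata2* and *Tfap2a*) therefore have no test here, and the limits given for counts of 0 cover counting error only.

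*Elf3* and *Dab2* had the largest spread among controls of the tested genes in log2 normalised counts once batch means were removed. They lie on chromosome 1 from 135253575 to 135258568 and on chromosome 15 from 6299788 to 6440712, the latter on the chromosome of the keratin pair. *Elf3*, an ETS-family factor of epithelia, was at 5.75, 17.6 and 37.6 TPM in controls (lowest, median and highest) and at 23.3, 16.1, 8.94, 20.7 and 35.2 TPM in mutant replicates 1 to 5. No mutant exceeded every control. For the genotypes it gave a log2 fold change of 0.17 ± 0.36 (SE, DESeq2 adjusted p = 0.930, edgeR 0.928), with an interval of -0.53 to 0.88. *Dab2*, an adaptor of clathrin-mediated uptake in trophectoderm and primitive endoderm, was at 2.42, 33.4 and 4.63 TPM in the controls of batch 2 and 8.57, 10.5 and 6.06 TPM in those of batch 1. Its mutants had 31.2, 19.8 and 15.7 TPM in batch 2 and 12.3 and 32.5 TPM in batch 1. On this scale every mutant lay above every control except control replicate 2, the highest embryo of all.

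The call for *Dab2* depended on which embryos were in the fit. Its log2 fold change was 0.94 ± 0.48 (SE), with an interval of 0.01 to 1.87, an unadjusted p of 0.0482 and DESeq2 and edgeR adjusted p values of 0.429 and 0.564. Control replicate 2 had a normalised count of 426, against 46.4 to 120 in the other controls. Without it the log2 fold change was 1.74 and the adjusted p 0.00144 (DESeq2), while without mutant replicate 5 it was 0.49 with an adjusted p of 0.998. Control replicate 2 was the shallowest library, and its oviduct marker sum was 8.38 TPM. The effective length of *Dab2*, which has 14 annotated transcripts, ranged from 1917 to 3863 bases between embryos, so counts and TPM need not order the embryos alike.

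Of the 10 genes, 6 had a mean normalised count above 10 and were tested. Of these, 1 was called by DESeq2 and none by edgeR, where all genes tested gave 1.45% called by DESeq2 (0.565% higher in mutants) and 0.334% by edgeR. An unadjusted DESeq2 p under 0.05 was found for 4 of the 6, all higher in mutants, against 11.9% of all genes tested (5.74% for those higher in mutants). Without the 3 embryos rich in oviduct markers it was found for 1 of the 6, *Krt18*, against 8.88% of all genes tested in that fit. In 2 of the 6, *Krt18* and *Tfap2c*, every mutant was above every control of its batch in normalised counts, as for 1.33% of all genes. None had every mutant above every control of both batches, which held for 0.287% of all genes. All 6 log2 fold changes were positive, with a median of 0.66, where the median of 10448 genes was -0.001. Without the 3 embryos rich in oviduct markers the 6 were still positive, but their median was 0.335 (all genes tested, -0.004), and in batch 1 alone *Gata3* (-0.065) and *Elf3* (-0.023) were negative. The 6 share embryos and are not independent of one another.

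**Figure D3:**
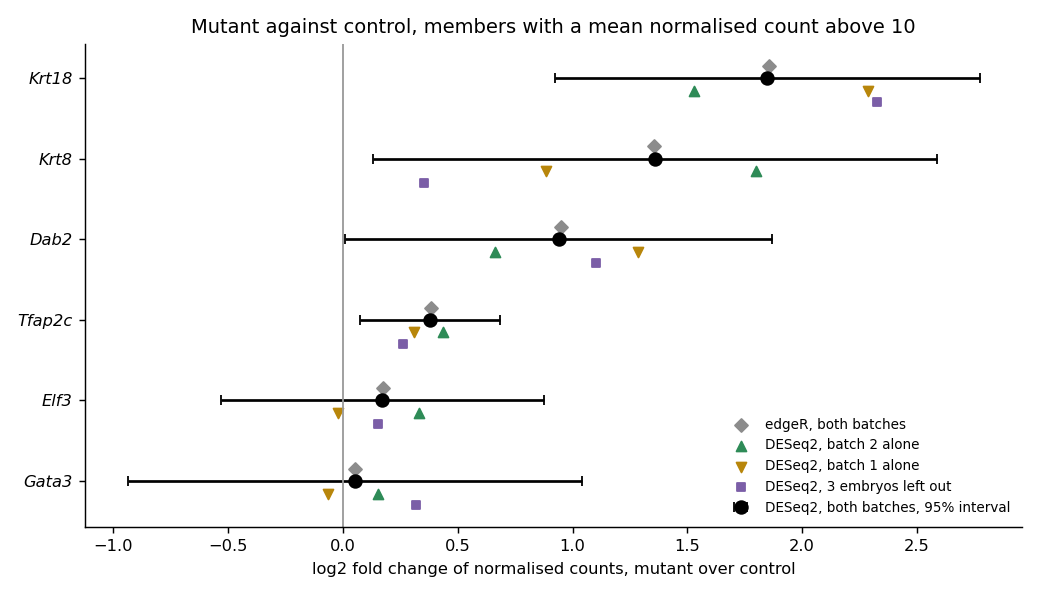
Log2 fold change of normalised counts, mutant over control, for the 6 tested genes: black points and bars give the DESeq2 value with its 95% interval, diamonds edgeR, triangles each batch alone, and squares the fit without the 3 embryos above 10 TPM of oviduct markers. *Krt18* stayed between 1.53 and 2.32 in these fits, and *Krt8* fell to 0.35 without the 3 embryos.

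The batches themselves differed for some of these genes. *Tfap2c* was higher in batch 1, by 0.94 ± 0.16 on the log2 scale (SE, DESeq2 adjusted p = 1.07e-07, edgeR 0.000704), and *Krt8* by 1.79 ± 0.63 (DESeq2 adjusted p = 0.0225, edgeR 0.0616). These were 2 of 6, where 27.9% of all genes passed the same DESeq2 threshold and 14.0% did so with the higher level in batch 1. Batch stands for separate isolation and processing and a different number of PCR cycles, which cannot be told apart. The difference between genotypes did not depend detectably on batch: the interaction term was called for 0 of the 6 by DESeq2 (0.0573% of all genes) and by edgeR, and 0 had an unadjusted p under 0.05. For *Krt18* it was 0.75 ± 0.98 (SE), too wide to show that the rise was equal in both.

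Spread between embryos of one group differed widely among the genes. After batch means were removed, the SD of log2(normalised count + 1) among controls was 0.27 for *Tfap2c*, 0.39 for *Gata3*, 0.49 for *Krt8*, 0.73 for *Krt18*, 0.83 for *Elf3* and 1.23 for *Dab2*, where the median gene had 0.51. The share of tested genes with a smaller control SD was 17.9% for *Tfap2c*, 69.7% for *Krt18*, 74.9% for *Elf3* and 88.0% for *Dab2*. Among mutants *Krt8* (1.58) and *Gata3* (1.53) spread the most and *Tfap2c* (0.12) the least. The difference in spread between genotypes was not tested, nor was the part of counting error in the spread of the keratins, whose counts are low.

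**Figure D4:**
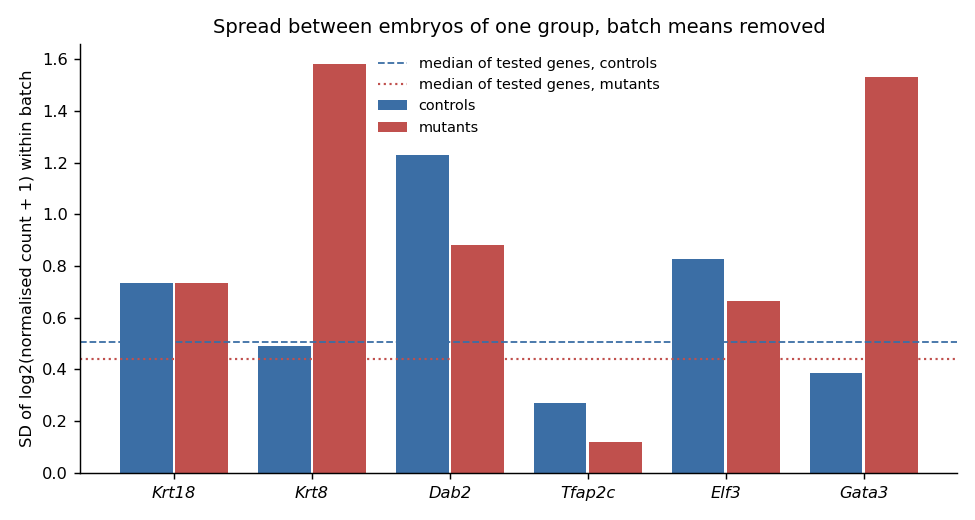
SD of log2(normalised count + 1) between embryos of one group after batch means were removed, for the 6 tested genes, with 6 controls in blue and 5 mutants in red, and with lines at the median of all tested genes (dashed for controls, dotted for mutants). *Tfap2c* lies under both lines, and *Dab2*, *Elf3* and *Krt18* lie over both.

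High values did not gather evenly over the embryos. Among the 5 embryos of batch 1, mutant replicate 5 had the highest normalised count for 5 of the 6 tested genes (*Gata3*, *Tfap2c*, *Krt8*, *Krt18* and *Dab2*), and it also had the highest *Cdx2* TPM of all embryos. In batch 2 mutant replicate 1 was highest for *Gata3*, *Elf3* and *Dab2*, mutant replicate 3 for both keratins, and mutant replicate 2 for *Tfap2c* while lowest for *Gata3*. Control replicate 1 was lowest in its batch for *Tfap2c*, *Elf3*, *Krt8* and *Dab2*. Across the 11 embryos, with batch means of log2(TPM + 1) removed, the pairs most alike were *Cdx2* and *Elf3* (Pearson r = 0.783), *Gata2* and *Krt8* (0.772), *Tfap2c* and *Dab2* (0.759) and *Cdx2* and *Dab2* (0.742), while the keratin partners had an r of 0.537. *Gata2* was above 0.15 TPM in mutant replicate 3 alone, the embryo with the highest oviduct marker sum, and its r without that embryo was not computed. The r values of *Cdx2* rest on 0 to 18 reads in an embryo, with none in 3 of the 11. These are descriptions over 11 embryos that share libraries and depth, and the difference between genotypes was not removed from them.

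The genes whose pattern over the same 11 embryos was most like that of *Krt18* were *Zbtb9* (r = 0.915), *Psrc1* (0.894), *Gss* (0.888), *Gm43549* (0.870) and *Ubl5* (0.860). For *Krt8* they included *Stk11ip* (r = 0.899), *Chfr* (0.882), *Slx1b* (0.878) and *Radil* (0.869). For *Cdx2* they were *Pdgfra* (0.947), *Fth1* (0.905), *Ryr1* (0.903), *Cat* (0.900) and *Capzb* (0.900). The *Cdx2* values rest on 0 to 18 reads in an embryo, with none in 3 of the 11. No gene stood on more than 1 of these lists, and no trophectoderm gene of those studied stood on any. These too are descriptions with the difference between genotypes left in, chosen as the highest values among all genes with a mean normalised count above 10.

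Other genes of the trophectoderm lay on both sides of 0. Of 22 such genes, 16 were tested, with 8 positive and 8 negative log2 fold changes and a median of 0.05. Of these, 2 were called by DESeq2, both higher in mutants, against 1.45% of all genes tested. The list was written with earlier results of these data known, so the 2 shares are not an independent comparison. *Klf5*, a Krüppel-like factor needed for trophectoderm, was at 80.2, 93.9 and 123 TPM in controls (lowest, median and highest) and at 151 to 201 TPM in mutants, without overlap (log2 fold change 0.84 ± 0.14, SE, adjusted p = 1.07e-06 by DESeq2 and 0.00729 by edgeR). *Cldn4*, a claudin of the tight junctions that seal the blastocyst, was at 18.8, 99.4 and 132 TPM in controls and 101 to 231 TPM in mutants (1.08 ± 0.31, SE, DESeq2 adjusted p = 0.0370, edgeR 0.241). When single embryos were left out in turn, *Cldn4* missed the DESeq2 threshold in 8 of 11 fits (adjusted p up to 0.157) and *Klf5* passed it in 11 of 11. An unadjusted DESeq2 p under 0.05 was found for 5 of the 16, against 11.9% of all genes tested, with positive log2 fold changes for *Klf5*, *Cldn4* and *Tead4* and negative ones for *Hand1* and *Notch1*. *Tead4*, the TEAD factor upstream of *Cdx2*, was at 42.2 to 140 TPM in controls and 60.9 to 161 TPM in mutants (0.39 ± 0.19, SE, DESeq2 adjusted p = 0.421). *Hand1*, of later trophoblast giant cells, was at 30.6 to 112 TPM and 11.6 to 95.1 TPM (-0.62 ± 0.26, adjusted p = 0.283). *Fgfr2*, the FGF4 receptor of trophectoderm, was at 18.8 to 69.3 TPM and 23.1 to 83.9 TPM (0.26 ± 0.29, adjusted p = 0.814).

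Paralogs of the 10 genes gave 6 tested of 16, with 2 positive and 4 negative log2 fold changes and a median of -0.23. There were 0 calls by DESeq2 or edgeR, and 1 unadjusted DESeq2 p under 0.05, against 11.9% of all genes tested. The 3 most abundant of them were GATA factors of other lineages, with mean levels above that of *Gata3*. *Gata6*, the primitive endoderm factor, had 16.6 to 89.3 TPM in controls and 59.2 to 87.3 TPM in mutants. *Gata1* had 11.5 to 110 TPM and 24.6 to 113 TPM, and *Gata4* had 7.99 to 76.9 TPM and 7.53 to 39.0 TPM. Each of these ranges overlapped between the groups, and none of the 3 passed the threshold (DESeq2 adjusted p = 0.489, 0.753 and 0.826).

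**Figure D5:**
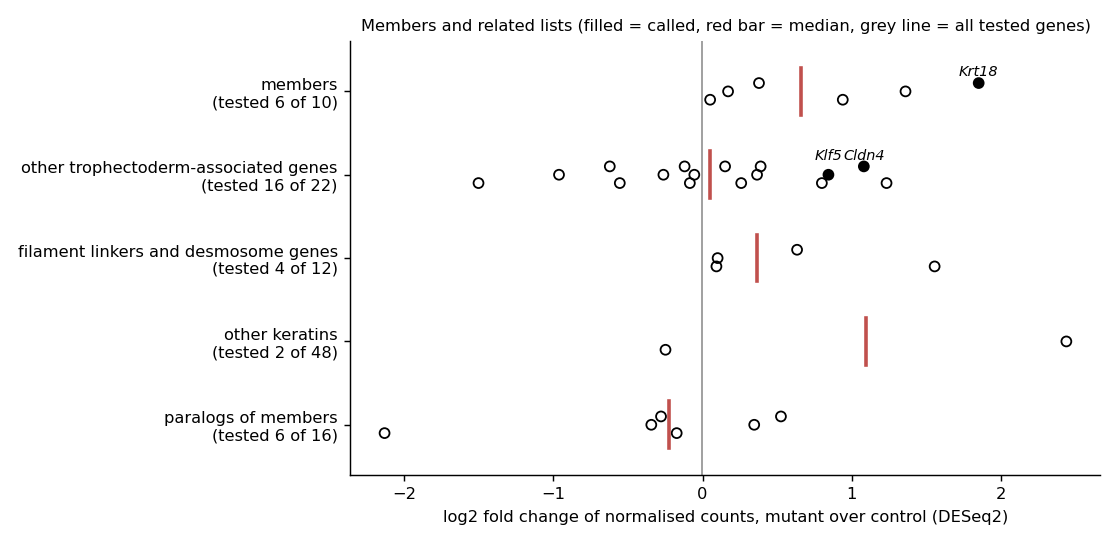
DESeq2 log2 fold changes of normalised counts, mutant over control, for the tested genes of the trophectoderm set (members) and of 4 related lists. Filled points passed the threshold, the red bar is each list's median and the grey line the median of all tested genes. *Krt18*, *Klf5* and *Cldn4* are filled, and the 16 other trophectoderm genes lie on both sides of 0.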

How the data were processed

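Single-embryo Smart-seq2 libraries (single-end reads, no molecular identifiers) were mapped by the authors to GRCm38.p6 with STAR 2.6.0c and quantified by gene with RSEM. The deposited expected counts (estimated reads per gene, reads shared between genes being divided), TPM and, among other columns, effective lengths and posterior SDs of counts, per the file headers, were used. The authors' deposited comparison table (mean, log2 fold change, SE, Wald score and p-values) was not used. Symbols and positions came from a later GENCODE annotation of the build, and promoters from RefSeq.

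Expected counts were rounded and all genes were fitted together in DESeq2 1.42.0 (Wald test, group effect with a batch covariate, log2 fold changes left unshrunken, Benjamini-Hochberg adjustment). The call required an adjusted p below 0.05 together with a mean of normalised counts (baseMean) above 10. The edgeR 4.0.16 quasi-likelihood test was given beside each call, and limma 3.58.1 on log2(TPM + 1) was an alternative. Other alternatives were a pseudocount of 0.1, TMM factors, other count filters, no batch term, each batch alone, a length offset and leaving out each embryo. Leaving out the embryos above 10 TPM of oviduct markers, testing the difference between batches and the keratin ratio were added after seeing the data. Batch was a planned term of the main fit. The tests were checked in 3 simulations of 10489 genes with 200 changed.

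The genes, lists and tests were chosen with earlier results of these data known. Named genes were the 10 and *Prdm10*, every called gene of 4 lists, up to 3 uncalled genes a list by mean TPM, and the 5 genes most correlated with *Krt8*, *Krt18* and *Cdx2*, of which 1 is not reported here. Replicates were single embryos numbered in accession order. No library is assigned to a litter, so p-values measure the spread between embryos.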

Additional observations from a re-analysis of the deposited data

Results flagged for a closer look

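Of 12 groups of values (6 tested genes, controls and mutants), 2 held an embryo that stood apart. Each differed from the others of its group by more than Dixon's 95% criterion allows. Chance gives about 1 in 20 for normally distributed values, and that rate was not checked for these counts, which pool 2 batches. The *Krt18* normalised count of control replicate 1 was 43.08, with the other controls at 6.73 to 15.5. Without it the *Krt18* log2 fold change was 2.29 (DESeq2 adjusted p = 0.000280). The *Dab2* normalised count of control replicate 2 was 425.7, with the other controls at 46.4 to 120, and without it *Dab2* passed the DESeq2 threshold.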

How the results depend on the processing

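The number of trophectoderm genes called was 1 (*Krt18*) in DESeq2 and 0 in edgeR, in limma on log2(TPM + 1) or log2(TPM + 0.1), without a batch term (*Krt18* adjusted p = 0.0551), in batch 1 or batch 2 alone, with a baseMean above 100, and in edgeR without the embryos rich in oviduct markers. All genes called numbered 151 in DESeq2, 35 in edgeR, and 22 and 21 in the limma fits. They numbered 51 without a batch term, 78 in batch 1 alone and 48 in batch 2 alone. In edgeR without the oviduct-rich embryos they numbered 17. Leaving out 1 embryo gave 0 to 2 trophectoderm genes, with 90 to 265 genes called in all. Without control replicate 2 (265 in all), *Dab2* was added. Without mutant replicate 3 (104 in all) or mutant replicate 5 (91 in all), no trophectoderm gene was called. The *Krt18* log2 fold change was positive in every fit, 1.44 to 2.29 with 1 embryo left out. Of the other listed genes, 2 were called in DESeq2, 1 (*Klf5*) in edgeR, in both limma fits, without a batch term and in batch 1 alone, and 0 in batch 2 alone and in edgeR without the oviduct-rich embryos, and 1 to 2 with 1 embryo left out, where *Cldn4* was called in 3 of 11 fits and *Vim* was added without mutant replicate 1 or mutant replicate 3. A length offset gave 3, with *Notch1* added. The number with an interaction stayed at 0 in every fit tried. The sign of *Gata3* turned to -0.26 and -0.46 in limma (pseudocounts 1 and 0.1), -0.065 in batch 1 alone, -0.18 with a length offset, and ranged from -0.30 to 0.31 with 1 embryo left out (negative without control replicate 4, mutant replicate 1 or mutant replicate 5). The sign of *Elf3* turned to -0.023 in batch 1 alone and ranged from -0.027 to 0.365 with 1 embryo left out (negative without control replicate 1 or mutant replicate 1). The causes were not tested. No paired analysis was possible because replicate numbers were given in accession order and pair no embryos. Depth limits *Cdx2*, *Eomes*, *Gata2* and *Tfap2a*, which have few or no reads in most embryos.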
